A study of Homo sapiens with 33 samples.

Results

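The cytosolic ribosomal protein (RP) genes encode the proteins of the large subunit (RPL genes and the stalk genes RPLP0, RPLP1 and RPLP2) and of the small subunit (RPS genes and RPSA) of the ribosome that translates nuclear-encoded mRNA. They were chosen by symbol and by level: RPL or RPS followed by a number and at most an A or X, or one of RPLP0, RPLP1, RPLP2 and RPSA, with at least 100 counts in every library. By symbol, 77 of the 59428 rows of the counts matched, and 73 of these also passed the level, 45 of the large and 28 of the small subunit. Among those that fell below the level in at least 1 library were RPS10 (5 to 95 counts), RPL36A (18 to 196) and RPS28 (48 to 1341). Just inside it were RPL17 (118 to 267 counts), RPL21 (138 to 306), RPS26 (170 to 454) and RPL39 (197 to 716).

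RP genes are transcribed by RNA polymerase II, and their mRNAs are among the most abundant and long-lived of a growing cell. Most of these mRNAs begin with a cytosine followed by an unbroken run of pyrimidines, the terminal oligopyrimidine (TOP) motif, through which mTOR and the RNA-binding protein LARP1 set their translation and stability together. RP proteins meet ribosomal RNA in the nucleolus, where RNA polymerase I makes the large precursor RNA, and unused RPL5 and RPL11 bind MDM2 when assembly fails. The mitochondrial (MT) mRNAs are made inside mitochondria by a polymerase of their own, not by RNA polymerase II.

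The study measured poly(A) RNA by 3' tag sequencing (QuantSeq FWD, which reads next to the 3' end of a transcript) in breast cell lines spelled MDA-MD-231 and MDA-MD-468 in the labels, with genotype WT in all libraries but the knockouts. In the inhibitor part, each line had a DMSO library and a parental library at 0 h, together called the controls here, and SY200, V50 or SY200/V50 (the combination) for 3, 6 and 12 h, 22 libraries in all. In the knockout part, MDA-MD-231 had a parental library at 0 h, and, at 72 and 96 h, CDK1 KO, CDK7 KO, CDK9 KO, the double CDK7/9 KO and their empty vector control, 11 libraries in all. The series describes single and combined inhibition of CDK7, a kinase of the initiation factor TFIIH, and CDK9, the kinase that releases paused RNA polymerase II. The kinase on which each of SY200 and V50 acts, what the numbers in their names mean, how the knockouts were made and whether they are single clones are not stated. Each line, condition and time had 1 library, and separate cultures are not stated. For the inhibitors the p-values rest on how far the lines disagree within a condition beyond a constant line difference. The gap between DMSO and parental libraries also enters that spread. For the knockouts they rest on how far the conditions disagree between 72 and 96 h beyond a common time difference. Either spread may be technical. The controls have no libraries at 3, 6 or 12 h, so the effects of a compound and of time in culture cannot be told apart.

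Total counts per library were 16985219 to 22859779. Markers of MDA-MD-231 had a median of 337 to 636 counts scaled to a library of 1000000 (counts per 1000000, CPM) in its inhibitor libraries and 15.0 to 35.3 CPM in MDA-MD-468. Markers of MDA-MD-468 stood at 6.12 to 12.8 CPM in the former libraries and at 189 to 253 CPM in the latter. Immune cell markers summed to 2.30 to 22.8 CPM over all libraries. CDK7 was at 49.0 and 67.2 CPM with the empty vector (72 and 96 h), at 15.2 and 13.7 CPM in CDK7 KO and at 15.6 and 17.2 CPM in CDK7/9 KO. CDK9 was at 70.4 and 62.7 CPM with the empty vector, at 33.4 and 36.6 CPM in CDK9 KO and at 34.3 and 36.9 CPM in CDK7/9 KO. CDK1 was at 178 and 285 CPM with the empty vector and at 82.1 and 86.6 CPM in CDK1 KO, but also at 78.9 CPM in the parental library of that part. Part of a deleted gene can still give 3' tags, so these levels do not measure the proteins.

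Where an RP mRNA starts defines it as a TOP mRNA, so the start sites of the members described most are shown first. Of the 73 genes, 59 had a RefSeq promoter entry (GRCh38.p14, 250 bases before to 50 after the annotated start). A TOP start was counted where the annotated first base was C and at least 4 pyrimidines followed it without a break. It was present in 44 of the 59 (74.58%) and in 1404 of all 27305 genes with an entry (5.142%). The counts were 12 of 14 for other TOP mRNAs with an entry (85.71%) and 6 of 68 for mitochondrial ribosomal protein genes (8.824%). The run was 5 to 19 bases long, with a median of 8. RPL11 had 2 entries and RPS27A had 3, and a single start of each is shown. Each line below gives 10 bases before the start and 20 from it, 5′ to 3′ on the strand of the gene, with the pyrimidine run that begins at the start in capitals.
RPL11 (chr1:23691796-23691825, plus strand): gctccgctttCTCTTCCTgctctccatcat
RPLP0 (chr12:120201092-120201121, minus strand): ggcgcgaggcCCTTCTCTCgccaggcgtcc
RPLP1 (chr15:69452808-69452837, plus strand): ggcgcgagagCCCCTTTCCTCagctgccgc
RPLP2 (chr11:809957-809986, plus strand): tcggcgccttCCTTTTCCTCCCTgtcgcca
RPS6 (chr9:19380217-19380246, minus strand): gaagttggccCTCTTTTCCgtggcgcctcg
RPS3 (chr11:75399508-75399537, plus strand): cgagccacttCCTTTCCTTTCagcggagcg
RPS14 (chr5:150449720-150449749, minus strand): ccctcccactCTCTCTTTCCggtgtggagt
RPL22 (chr1:6199576-6199605, minus strand): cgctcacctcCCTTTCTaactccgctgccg
RPL41 (chr12:56116623-56116652, plus strand): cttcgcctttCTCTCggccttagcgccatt
RPS27A (chr2:55232678-55232707, plus strand): ggcgttcttcCTTTTCgatccgccatctgc
RPSA (chr3:39406710-39406739, plus strand): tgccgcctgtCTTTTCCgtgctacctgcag
RPL39 (chrX:119791611-119791640, minus strand): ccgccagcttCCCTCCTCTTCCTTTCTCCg

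The run of RPL39, a protein of the exit tunnel, was the longest of the 44, and that of RPL41 was at the minimum of 5. The following 4 members had an entry without a TOP start by this rule and are named in the comparisons further on.
RPL17 (chr18:49492446-49492475, minus strand): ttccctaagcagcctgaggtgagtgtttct
RPS26 (chr12:56041908-56041937, plus strand): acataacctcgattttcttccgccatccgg
RPL9 (chr4:39458903-39458932, minus strand): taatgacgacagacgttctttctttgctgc
RPL3 (chr22:39319604-39319633, minus strand): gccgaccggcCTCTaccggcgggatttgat
RPL3 began with 4 pyrimidines, below the minimum. The class of a gene depends on the annotated start, which may differ from the start used in these cells. The whole promoter window was searched on both strands. CCGGAA was found in 57.63% of the 59 genes against 20.1% of all genes with an entry, and GGGCGG in 55.93% against 48.3%. TATAAA was found in 6.78% against 13.99%, and CACGTG in 5.085% against 8.775%. CCGGAA was also in 61.76% of the mitochondrial RP genes, while the TOP start was not shared with them to that extent. A snoRNA gene lay inside 28 of the 73 genes in GENCODE release 29, and the coding length of the members ranged from 75 to 1281 bases.

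The controls of the lines differed in RP level. The 73 genes made up 3.71% of all counts in DMSO and 4.25% in parental MDA-MD-231, and 2.54% and 2.79% in MDA-MD-468. The mitochondrial mRNAs went the other way, at 2.51% and 2.17% in MDA-MD-231 and 3.93% and 3.88% in MDA-MD-468. RP counts per MT mRNA count were thus 1.48 and 1.95 in MDA-MD-231, against 0.645 and 0.718 in MDA-MD-468. In bulk samples fewer cells and less RNA per cell cannot be told apart, and with no external RNA standard used here neither scale gives mRNA molecules per cell. All these shares have 95% Wilson intervals of at most 0.016 percentage points on either side, which cover counting error only.

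In MDA-MD-468 controls, 49 of the 73 genes were lower and 4 were higher than in MDA-MD-231 controls on the total-count scale (edgeR quasi-likelihood test, Benjamini-Hochberg (BH) adjusted p under 0.05 over all genes tested). Of all 18911 genes tested, 24.6% were called lower and 29.5% higher. The members' median log2 difference was -0.58, against 0.11 for all genes tested. RPLP0, the base of the stalk that recruits elongation factors, stood at 660 and 656 CPM in MDA-MD-468 against 1941 and 2062 CPM in MDA-MD-231. Its log2 difference was -1.60 ± 0.09 (SE, 2 libraries per line, edgeR BH-adjusted p = 8.48e-09). RPL6 followed with -1.59 and RPL35, which lies near the exit tunnel, with -1.48.

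The 4 genes called higher in MDA-MD-468 were RPL9, RPS12, RPL11 and RPS3. RPL9 was at 48.2 and 59.8 CPM there against 30.0 and 31.2 CPM (log2 difference 0.82 ± 0.17, edgeR BH-adjusted p = 0.00102). RPS3, a protein of the mRNA entry channel, was at 1036 and 1138 CPM against 788 and 910 CPM. RPL11 was at 633 and 702 CPM against 449 and 552 CPM, while its partner in the 5S particle, RPL5, was at 754 and 885 CPM against 966 and 1124 CPM. These groups do not overlap in any of the 3 genes RPL9, RPL11 and RPS3, nor in RPL5. The 3 genes were called higher on these same libraries, so this is not separate support. The rise of 4 genes did not hold on the mitochondrial scale: there none was called higher and 67 were called lower, against 16.1% and 43.7% of all genes. Large-subunit members had a median log2 difference of -0.77 and small-subunit members of -0.43 on the total-count scale. The ratio of RPL to RPS counts was 1.51 and 1.55 in MDA-MD-231 controls and 1.16 and 1.20 in MDA-MD-468 controls.

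**Figure D1:**
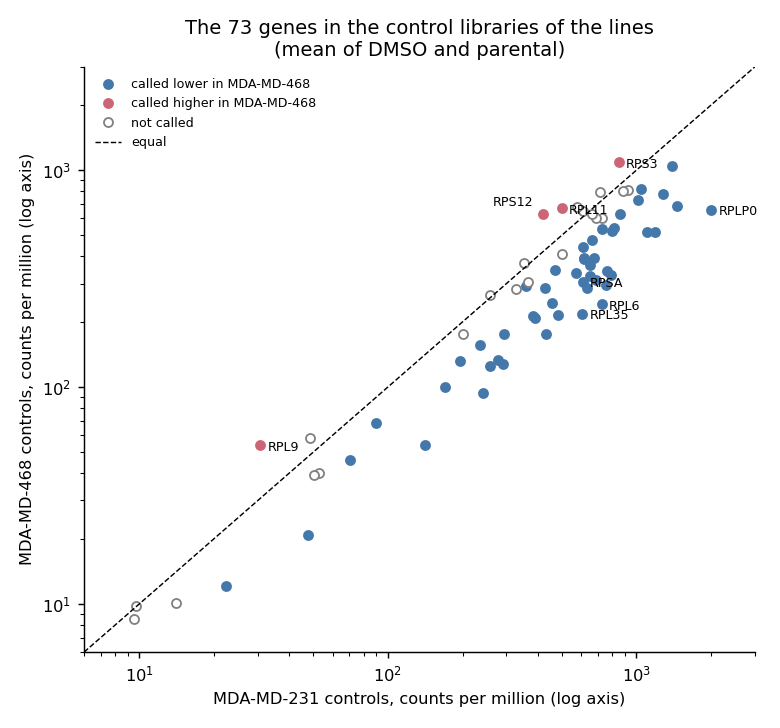
Each point is 1 of the 73 genes, with the mean CPM of the DMSO and parental libraries of MDA-MD-231 on the x axis and of MDA-MD-468 on the y axis, both on log axes. The 49 genes called lower in MDA-MD-468 on the total-count scale (blue) lie under the line of equal level, with RPLP0 and RPL6 farthest, and the 4 called higher (red) lie above it; relative to MT mRNAs none of these 4 was called higher.

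Under SY200 alone, no member passed the test on the total-count scale, although the RP share lay above both controls in MDA-MD-468. The share was 4.4%, 3.90% and 3.73% at 3, 6 and 12 h in MDA-MD-231, which lies within or just above the 2 controls (3.71% and 4.25%). In MDA-MD-468 it was 2.91%, 3.10% and 3.14%, above both controls (2.54% and 2.79%). Over both lines and the 3 times, no member was called in either direction by edgeR on the total-count scale, where 0.814% of all genes were called higher and 1.27% lower, and 5 members had an unadjusted p under 0.05. DESeq2 on the same totals also called none. The share of all genes with an unadjusted p under 0.05 is not given, here or below. Counts at that level are thus not set against all genes. The members' median log2 change was 0.11, against -0.03 for all genes.

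The highest values under SY200 were 0.27 ± 0.09 for RPL35, 0.23 for RPS3A and 0.22 for RPS27, and the lowest were -0.15 for RPL17, -0.10 for RPL28 and -0.10 for RPL13A. RPL13A, known also as a translational silencer outside the ribosome, was at 447 and 554 CPM in the MDA-MD-231 controls and at 497, 369 and 341 CPM after 3, 6 and 12 h of SY200. The last 2 values lie under both controls. In MDA-MD-468 the gene stayed among or just above its controls (364 and 456 CPM), at 455, 463 and 427 CPM. On the mitochondrial scale, 4 members were called lower (RPL17, RPL28, RPL13A and RPL10), with 27.0% of all genes called lower, and the members' median was -0.30 against -0.44 for all genes.

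The RP share of the counts was higher under V50 than in the controls. It was 4.74%, 5.61% and 5.22% at 3, 6 and 12 h in MDA-MD-231, all above both controls, and 3.32%, 3.46% and 2.90% in MDA-MD-468, also all above both controls. Over the 3 times, 58 of the 73 members were higher and none was lower on the total-count scale (edgeR, BH-adjusted p under 0.05), against 5.93% of all genes called higher and 20.6% lower. The direction turned relative to MT mRNAs, where 53 members were called lower and none higher, against 73.8% of all genes called lower and 1.63% higher. This fall was not seen alike in both lines. In MDA-MD-231, RP counts per MT count lay between the controls at 3 and 6 h and below both at 12 h. In MDA-MD-468 they lay below both controls at all 3 times. The median of the members was 0.35 on the first scale and -0.38 on the second, and that of all genes was -0.18 and -0.92. On either scale the members thus lay above the bulk of the genes. MT mRNAs were themselves 2.88%, 3.35% and 3.82% of the counts in V50-treated MDA-MD-231 and 7.38%, 7.75% and 7.42% in MDA-MD-468. All 13 MT mRNAs were called higher on the total-count scale, with a median log2 change of 0.70.

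By time, edgeR called 0, 61 and 17 members higher at 3, 6 and 12 h of V50 on the total-count scale. At 3 h, 46 had an unadjusted p under 0.05 by edgeR. DESeq2 called 5 at 3 h, and its share over all genes is not given here. At the adjusted level edgeR called 0.428%, 6.68% and 5.42% of all genes higher at the 3 times. On the mitochondrial scale 0, 1 and 51 members were called lower at these times, against 40.7%, 56.1% and 61.6% of all genes. The 12 h count depended on single libraries: it was 0 without the MDA-MD-231 V50 library of that time and 29 without the MDA-MD-468 one. The 6 h count was 2 without the MDA-MD-231 V50 library of that time. The mean over times gave 38 members without the MDA-MD-231 DMSO library, 36 without the MDA-MD-468 DMSO library and 37 without the MDA-MD-231 V50 12 h library. Without the block for the cell line no member was called. The shares of all genes called in these fits are not given here, nor for the fits below that leave out a library under the combination. Such counts show only how the calls moved.

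The combination gave the largest RP shares in both lines at 12 h. They were 4.66%, 5.09% and 5.95% at 3, 6 and 12 h in MDA-MD-231, and 3.24%, 3.76% and 4.03% in MDA-MD-468. At 12 h the RP share was 1.5 times the mean of the controls in MDA-MD-231 and 1.51 times in MDA-MD-468. The MT share was 2.15 and 3.46 times its controls, so that RP counts per MT count stood at 0.687 and 0.437 times the controls.

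Over the 3 times, 65 of the 73 members were higher under the combination and none was lower on the total-count scale (edgeR, BH-adjusted p under 0.05), against 10.8% of all genes called higher and 36.1% lower. All 73 were called lower relative to MT mRNAs, against 82.8% of all genes. The members' median log2 change was 0.43 on the total-count scale and -0.66 on the mitochondrial one, and that of all genes was -0.26 and -1.33. Under the TMM scaling all 73 members were called higher, with a median of 0.74 against 0.05 for all genes. Without the block for the cell line 8 members were called higher on the total-count scale. The shares of all genes called under TMM and without the block are not given here, so these counts show only how the calls moved.

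**Figure D2:**
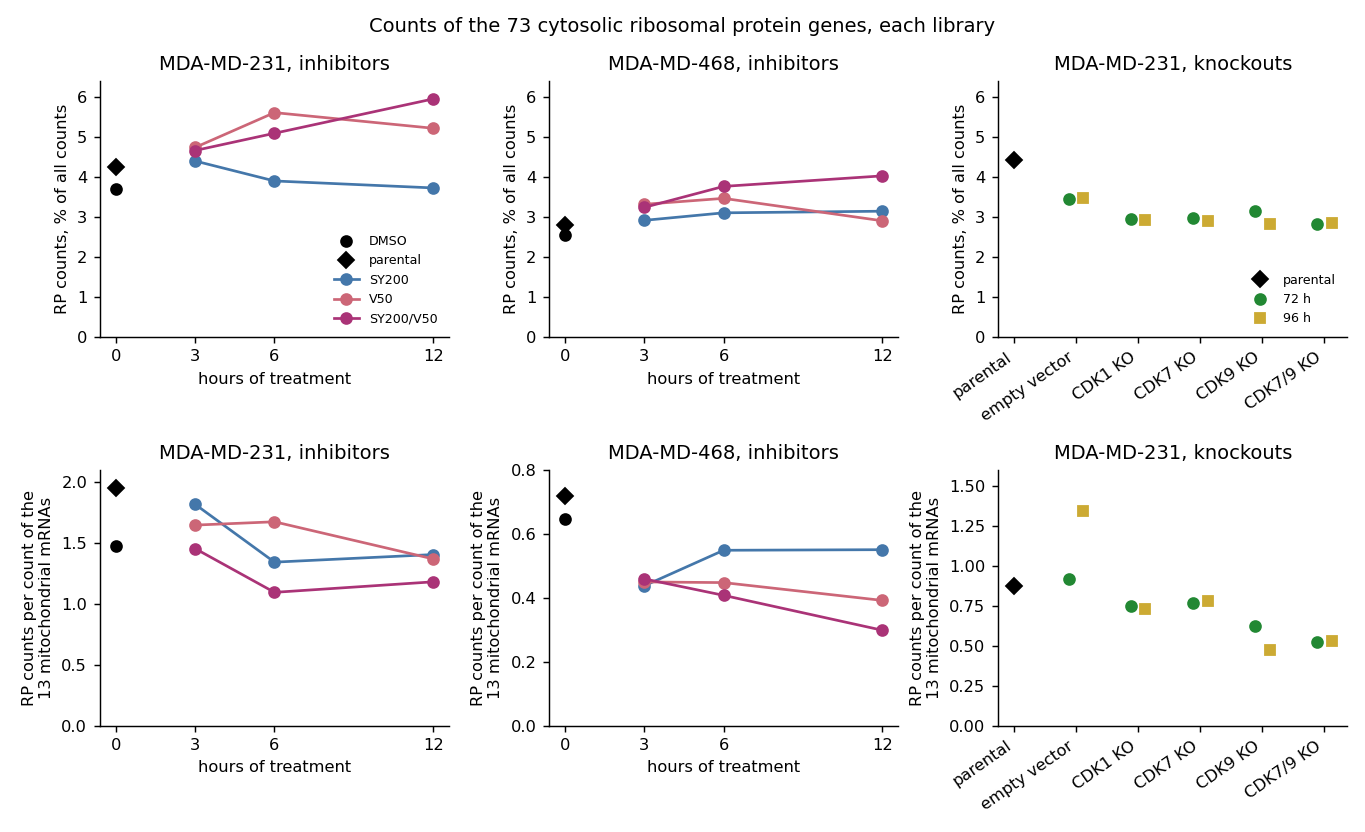
Each point is 1 library: the upper row gives the 73 RP genes as a percentage of all counts and the lower row the RP counts per count of the 13 MT mRNAs, by hours of treatment in each line and by condition in the knockout part. Under V50 and SY200/V50 the share of all counts lies above both controls in each line, while the ratio to MT mRNAs lies below both controls in MDA-MD-468 and, under SY200/V50, in MDA-MD-231.

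RPL5 and RPL11, which carry 5S ribosomal RNA into the large subunit, moved with the bulk of the members. RPL5 was at 966 and 1124 CPM in the MDA-MD-231 controls and at 1173, 1291 and 1378 CPM after 3, 6 and 12 h of the combination. In MDA-MD-468 it was at 754 and 885 CPM and then at 1033, 1067 and 1053 CPM. All treated libraries lay above both controls of their line, and the log2 change was 0.33 ± 0.08 (edgeR BH-adjusted p = 0.00357). Here and for the genes below, the test used these same libraries, so their order is not separate support. Per 1000 MT mRNA counts the same gene went from 38.5 and 51.7 to 36.5, 27.7 and 27.3 in MDA-MD-231. In MDA-MD-468 it went from 19.2 and 22.8 to 14.6, 11.5 and 7.79, and the log2 change was -0.76 ± 0.15 (edgeR BH-adjusted p = 7.20e-05). RPL11 had a log2 change of 0.43 ± 0.09 on the total-count scale and of -0.65 ± 0.15 on the mitochondrial one. MDM2, the ubiquitin ligase that RPL5 and RPL11 bind, fell by 1.72 on the log2 total-count scale.

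The 3 stalk genes had larger changes than RPL5 and RPL11 on the total-count scale. RPLP0 was at 1941 and 2062 CPM in the MDA-MD-231 controls and at 2444, 2725 and 3502 CPM under the combination. The MDA-MD-468 controls had 660 and 656 CPM and the treated libraries stood at 790, 961 and 1098 CPM. In both lines the treated libraries lay above both controls and the 12 h library was the highest. The log2 change was 0.52 ± 0.07 (edgeR BH-adjusted p = 1.69e-05) and -0.57 ± 0.15 relative to MT mRNAs (edgeR BH-adjusted p = 0.00119). RPLP1 and RPLP2, which pair on the stalk, had 0.49 ± 0.09 and 0.50 ± 0.10 on the total-count scale and -0.59 and -0.58 on the mitochondrial one.

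Among the small-subunit members, RPS6, the classic substrate of the S6 kinases, was at 795 and 927 CPM in the MDA-MD-231 controls and at 1052, 1069 and 1157 CPM under the combination. The MDA-MD-468 controls had 576 and 673 CPM, and the treated libraries were at 726, 830 and 877 CPM. Its log2 change was 0.36 ± 0.09, below the median of the members. RPS3 had 0.39 ± 0.08 and RPS14, whose loss of 1 copy underlies the anaemia of the 5q- syndrome, 0.37 ± 0.10. RPS27A, made as a fusion of ubiquitin with an RP, had 0.44 ± 0.10. These 4 genes were at -0.73, -0.69, -0.71 and -0.64 relative to MT mRNAs and were called lower.

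RPSA, also known as the laminin receptor precursor, had the largest change after RPL22. It was at 581 and 634 CPM in the MDA-MD-231 controls and at 812, 922 and 1185 CPM under the combination. For MDA-MD-468 these values were 294 and 317 CPM and then, treated, at 404, 474 and 590 CPM. The groups do not overlap in either line, and the 12 h library was the highest in both. RPSA was called higher on these same libraries, so this is not separate support. The log2 change was 0.66 ± 0.07 (edgeR BH-adjusted p = 2.33e-06), and -0.43 ± 0.14 relative to MT mRNAs (edgeR BH-adjusted p = 0.00933).

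RPL22, an RNA-binding protein of the large subunit that cells can do without, had the largest change. It was at 38.8 and 58.4 CPM in the MDA-MD-231 controls and at 67.5, 77.0 and 87.0 CPM under the combination. In MDA-MD-468 it was at 51.5 and 64.9 CPM and then at 85.0, 97.0 and 111 CPM. The log2 change was 0.70 ± 0.12 (edgeR BH-adjusted p = 0.000161), and -0.39 ± 0.18 relative to MT mRNAs (edgeR BH-adjusted p = 0.0441), the smallest fall of the 73 on that scale. RPL22 was also the member with the widest gap between parental and DMSO libraries in MDA-MD-231. RPS2, near the mRNA entry channel, came next after RPL22 and RPSA with 0.59. RPL3, close to the peptidyl transferase centre, had 0.46 ± 0.09, and RPL41, the smallest protein of the ribosome, 0.43 ± 0.10.

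**Figure D3:**
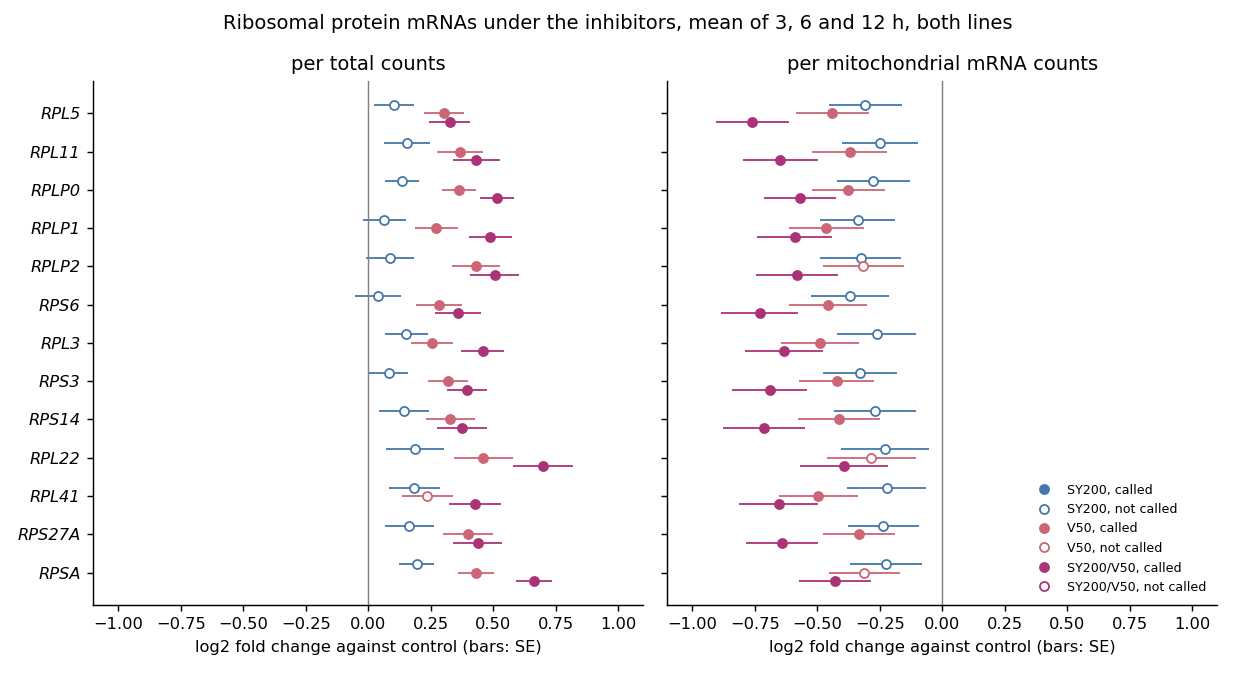
Points are log2 fold changes against the controls as the mean of 3, 6 and 12 h over both lines, with standard errors, for 13 members chosen by role, per total counts on the left and per MT mRNA counts on the right; filled points had an edgeR BH-adjusted p under 0.05. Under V50 and SY200/V50 all 13 lie above 0 on the left and below 0 on the right, and RPL22 and RPSA lie farthest to the right under SY200/V50 on both scales.

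The 8 members not called under the combination on the total-count scale were RPL17, RPS26, RPL26, RPS15A, RPL7A, RPL13, RPL9 and RPL13A, with log2 changes from 0.12 (RPL17) to 0.25 (RPL13A). RPL17, which lines the exit tunnel, had few counts. It was at 9.21 and 9.89 CPM in the MDA-MD-231 controls and at 11.5, 12.0 and 12.5 CPM under the combination. In MDA-MD-468 it was at 7.99 and 9.06 CPM and then at 7.87, 8.02 and 8.27 CPM, overlapping its controls. RPS26, at the mRNA exit, was at 15.1, 16.2 and 15.3 CPM in MDA-MD-231, between the controls of 11.6 and 16.4 CPM. In MDA-MD-468 it was at 12.1, 13.2 and 9.32 CPM, against 9.10 and 11.1 CPM in the controls. On the mitochondrial scale RPL17 and RPS26 had the lowest values of the 73 (-0.98 and -0.91). Members with a TOP start had a median log2 change of 0.43 and the 15 with an entry but no TOP start of 0.36 on the total-count scale, and 40 of 44 and 12 of 15 were called. The difference between these classes was not tested.

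By time, the combination gave 2 called members at 3 h (RPSA and RPS3A), 58 at 6 h and 62 at 12 h on the total-count scale, where 0.693%, 8.29% and 11.4% of all genes were called higher. On the mitochondrial scale 2, 72 and 73 members were called lower at these times, against 45.6%, 74.2% and 83.9% of all genes. The 3 h count ranged from 0 to 5 when single libraries were left out, and was 0 without either of the SY200/V50 3 h libraries. The 6 h count fell to 31 without the MDA-MD-231 library and to 10 without the MDA-MD-468 library of that treatment and time.

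Within the combination, 23 members were higher at 12 h than at 3 h and none was lower on the total-count scale, against 3.52% of all genes called higher and 19.9% lower. On the mitochondrial scale the direction turned, with 22 members called lower, against 55.2% of all genes. The largest rises were 0.75 for RPL39, 0.65 for RPS12 and 0.61 for RPS2. RPL39 was at 21.2, 24.7 and 35.6 CPM at 3, 6 and 12 h in MDA-MD-231 and at 13.9, 19.8 and 23.5 CPM in MDA-MD-468. RPS12 was at 399, 519 and 687 CPM in MDA-MD-231 and at 777, 974 and 1112 CPM in MDA-MD-468. The order of times was the same in both lines for both genes. RPL39 and RPS12 were named as the largest rises in these same libraries, so this is not separate support. RPLP0, RPLP1, RPLP2, RPL41 and RPSA were among the 23, and RPL5, RPL11, RPS6, RPL3, RPS3, RPS14, RPL22 and RPS27A were not.

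Of the 38 members with a coding length at or under the median, 17 were called higher at 12 h than at 3 h, and of the 35 longer ones 6 were. The difference between these classes was not tested. The count of 23 fell to 7 without the MDA-MD-231 3 h library, to 10 without the MDA-MD-468 3 h library, and to 13 and 15 without the 12 h libraries of MDA-MD-231 and MDA-MD-468. At 12 h against 3 h, no member was called under SY200 or under V50 alone (1 and 0 with an unadjusted p under 0.05 by edgeR). Of all genes, 1.22% were called higher and 0.952% lower for SY200 in that contrast, and 7.02% and 5.73% for V50.

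The combination and the single agents share the control libraries, so their own contrasts were fitted. Against SY200, 61 members were higher under the combination on the total-count scale, against 7.35% of all genes, with a median of 0.31 for the members and -0.21 for all genes. Relative to MT mRNAs 58 were called lower, with a median of -0.37, against 71.8% of all genes. Against V50, 2 members were higher on the total-count scale, RPS2 (0.29) and RPSA (0.23 ± 0.06, edgeR BH-adjusted p = 0.0158), against 1.5% of all genes. This count ranged from 0 to 4 when single libraries were left out: it was 4 without the MDA-MD-231 V50 12 h library, 1 without the 3 h library of the combination in MDA-MD-231 and 0 without any one of the MDA-MD-468 V50 3, 6 and 12 h or SY200/V50 6 h libraries. Relative to MT mRNAs 8 members were called lower against V50, with RPS26 lowest at -0.54, against 34.9% of all genes.

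The difference between the lines in the response was tested for each treatment, and no member was called for any of the 3 on the total-count scale (5, 0 and 0 with an unadjusted p under 0.05 for SY200, V50 and the combination by edgeR). By edgeR 0.0% of the 18911 genes were called in these 3 tests. DESeq2 on the same totals also called no member, but over all genes 3, 79 and 251 were called higher and 21, 43 and 153 lower. The members' median difference under SY200 was 0.20, against 0.08 for all genes. Across the 73 genes the mean changes in both lines had a Pearson r of 0.15 for SY200, 0.36 for V50 and 0.47 for the combination (Spearman rho 0.23, 0.33 and 0.52). Within a line all members share the same libraries and the same controls, and genes are not independent replicates.

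The parental and DMSO libraries that form the controls were not alike for these genes. Parental CPM exceeded DMSO CPM in 70 of 73 members in MDA-MD-231 (median log2 difference 0.22) and in 65 of 73 in MDA-MD-468 (0.16). The same comparison over all genes is not given here, so whether this is particular to the members is not shown. With DMSO alone as the control, 60 members were called higher under V50 and 67 under the combination on the total-count scale, against 4.67% and 9.97% of all genes. The members' medians were 0.45 and 0.51, and those of all genes -0.20 and -0.29.

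Genes with related roles were counted in the same way under the combination, where 10.8% of all genes were higher and 36.1% lower on the total-count scale, with a median of -0.26. Of 19 other TOP mRNAs tested, which encode translation factors and their partners, 10 were higher and 2 lower on the total-count scale, with a median of 0.27. EIF3H (0.50 ± 0.10), EIF3K (0.42 ± 0.09) and PABPC1, the poly(A)-binding protein (0.39 ± 0.06), were among the higher ones, and EIF4B, an initiation factor, was at -0.64 ± 0.08. FAU, which encodes an RP fused to a ubiquitin-like protein and falls outside the symbol rule, was at 0.35 ± 0.12. Of 9 RP paralogs and fusions tested, 2 were higher and 1 was lower (RPL7L1, -0.36), with a median of 0.10. Relative to MT mRNAs all 19 of the other TOP mRNAs were called lower, with a median of -0.81, against 82.8% of all genes called lower.

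Of 76 mitochondrial RP genes, which are nuclear genes for the ribosome inside mitochondria, 33 were lower and 9 higher on the total-count scale, with a median of -0.21, near the shares and the median of all genes. MRPS30 was at -1.44 ± 0.13 and MRPS2 at -1.14 ± 0.12. Of 45 ribosome biogenesis genes 26 were lower and 1 was higher, with a median of -0.64, led by the assembly factors GRWD1 (-2.21 ± 0.18), NOC3L (-1.54 ± 0.13) and WDR75 (-1.32 ± 0.11). Of 20 RNA polymerase I genes 15 were lower and 2 higher, with a median of -0.86, led by the subunits POLR1C (-2.36 ± 0.22) and POLR1B (-2.03 ± 0.19). Every one of the 76, 45 and 20 genes was called lower relative to MT mRNAs, as were 82.8% of all genes. The medians were -1.29, -1.74 and -1.96, and the first of these lay near the median of all genes given above. Of 13 regulators of RP genes, 6 were lower and 4 higher on the total-count scale. RPTOR, a subunit of mTOR complex 1 (-1.76 ± 0.29), and the S6 kinase gene RPS6KB1 (-0.88 ± 0.15) were among the lower ones. The 4 higher genes are not named here, so the named genes do not stand for the list.

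Under V50 alone on the total-count scale, 9 of the 19 other TOP mRNAs were higher and none lower, 11 of 76 mitochondrial RP genes were lower and 2 higher, 8 of 45 biogenesis genes were lower and 1 higher, and 5 of 20 polymerase I genes were lower. Their medians were 0.17, -0.14, -0.12 and -0.27. Of all genes 5.93% were higher and 20.6% lower under V50, with a median of -0.18, so the shares of lower genes in the last 3 lists lay near or below that of all genes. Under SY200 alone, 1 biogenesis gene, 1 polymerase I gene and 1 other TOP mRNA were lower and no gene of these 4 lists was higher.

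**Figure D4:**
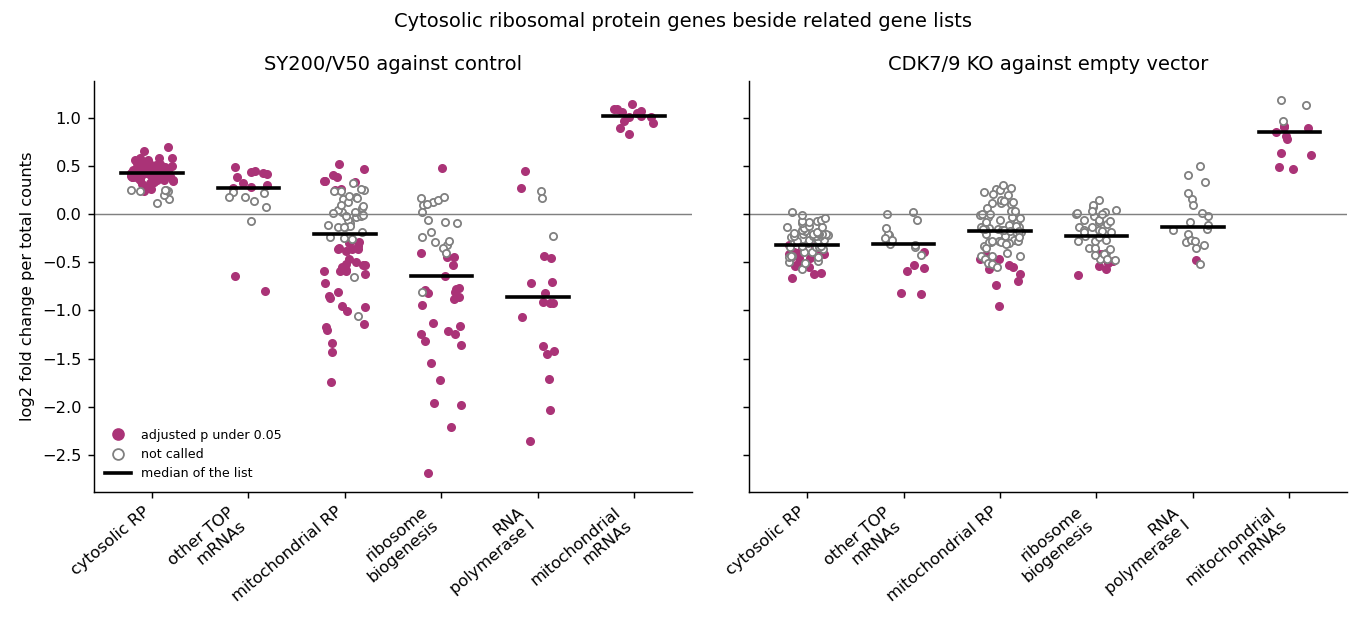
Each point is 1 gene, with its log2 fold change per total counts under SY200/V50 (left, mean of 3, 6 and 12 h) and in CDK7/9 KO (right); filled points had an edgeR BH-adjusted p under 0.05 and bars are list medians. On the left the RP genes lie together around 0.43 while biogenesis and polymerase I genes spread downwards; relative to MT mRNAs, whose own points lie around 1.02, the RP genes fall to a median of -0.66. On the right the RP genes have a median of -0.32.

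In the knockout part 1 library stood apart. The empty vector library of 96 h, 1 of the 2 control libraries of the knockouts, had 2.60% of its counts in MT mRNAs, against 3.72% to 5.98% in the other libraries. Its ratio of RPL to RPS counts was 1.45, against 1.56 to 1.64 in the others. From 72 to 96 h with the empty vector, RPS26, RPS27, RPS3A and RPL7 differed by 0.79, 0.74, 0.68 and 0.66 on the log2 scale, and RPL27, RPS29 and RPS21 by -0.61, -0.56 and -0.51. The SD of this difference over the 73 members was 0.331, against 0.074 to 0.138 within the knockouts. The counts and medians on the total-count scale are therefore also given without the empty vector 96 h library. So are the values of the members named below that moved most.

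**Figure D5:**
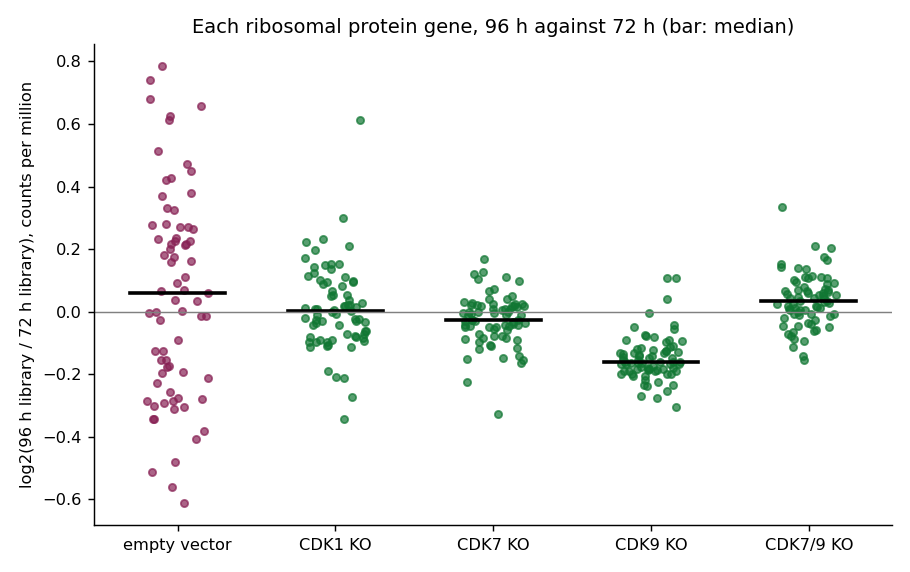
Each point is 1 of the 73 genes, with log2 of its CPM at 96 h over that at 72 h within 1 condition of the knockout part, and bars are medians. The points spread from -0.61 to 0.79 with the empty vector and lie closer together in each knockout.

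The RP share was 3.45% and 3.48% with the empty vector at 72 and 96 h. It was 2.95% and 2.91% in CDK1 KO, 2.98% and 2.91% in CDK7 KO, 3.14% and 2.83% in CDK9 KO, and 2.82% and 2.85% in CDK7/9 KO. Every knockout library thus lay below both empty vector libraries, while the parental library at 0 h was at 4.42%. RP counts per MT count were 0.914 and 1.34 with the empty vector. They were 0.750 and 0.727 in CDK1 KO, 0.765 and 0.781 in CDK7 KO, 0.623 and 0.472 in CDK9 KO, and 0.524 and 0.527 in CDK7/9 KO.

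In CDK7/9 KO, 21 of the 73 members were lower than with the empty vector and none was higher on the total-count scale (edgeR, BH-adjusted p under 0.05), against 5.59% of all genes called lower and 5.45% higher. The members' median was -0.32, and that of all genes was -0.01. RPS14 was at 520 and 587 CPM with the empty vector (72 and 96 h) and at 357 and 366 CPM in CDK7/9 KO (log2 change -0.62 ± 0.10, edgeR BH-adjusted p = 0.00884). RPL9, beside the factor-binding site, had -0.61. RPL7 had -0.66, but -0.28 without the empty vector 96 h library, where it was not called. RPS3 was at 731 and 779 CPM with the empty vector and at 564 and 539 CPM in CDK7/9 KO (-0.45 ± 0.10). RPS6 was at 752 and 852 CPM and then at 608 and 606 CPM (-0.40 ± 0.10), and RPL11 at 413 and 502 CPM and then at 336 and 349 CPM (-0.42 ± 0.10). Without the empty vector 96 h library RPS14 was at -0.50, RPL9 at -0.43, RPS3 at -0.35, RPS6 at -0.28 and RPL11 at -0.26, and all 5 were called lower. The knockout libraries of these 5 genes all lay below both empty vector libraries. The genes were called lower on these same libraries, so this is not separate support.

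Other members named by role were not called in CDK7/9 KO on the total-count scale. RPL5 was at -0.20 ± 0.09, RPLP0 at -0.17 ± 0.09, RPLP1 at -0.18 ± 0.12, RPL3 at -0.27 ± 0.09 and RPSA at -0.33 ± 0.12. RPL22, RPL41 and RPS27A had values of -0.43, -0.57 and -0.51 with standard errors of 0.15 to 0.18. Without the empty vector 96 h library these 3 were at -0.13, -0.17 and -0.17 and RPSA at -0.14, none of them called, while RPLP1 was at -0.32, RPL3 at -0.28 and RPLP0 at -0.24, all called lower. RPL22 was at 52.9 and 75.7 CPM with the empty vector and at 45.3 and 49.9 CPM in CDK7/9 KO. RPLP2 had the highest value of the 73, 0.02 ± 0.10 (-0.11 without the empty vector 96 h library), and on the mitochondrial scale it was at -0.76 ± 0.20 and called lower.

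In CDK9 KO, 8 members were lower and none higher on the total-count scale, against 3.7% of all genes called lower and 4.24% higher, with a median of -0.22 for the members and -0.01 for all genes. They were RPL9 (-0.69), RPL24, RPL7A, RPS13, RPL11 (-0.40 ± 0.10), RPS14 (-0.38 ± 0.10), RPS3 (-0.36 ± 0.10) and RPS18. All 8 were also called lower without the empty vector 96 h library, with RPL9 at -0.50, RPS14 and RPS3 at -0.26 and RPL11 at -0.25. RPL9 was at 26.3 and 34.3 CPM with the empty vector and at 19.5 and 18 CPM in CDK9 KO. In CDK1 KO and CDK7 KO edgeR called no member (43 and 36 had an unadjusted p under 0.05). At the adjusted level edgeR called 0.0298% and 0.00596% of all genes lower and 0.328% and 0.00596% higher. The share of all genes with an unadjusted p under 0.05 is not given here. DESeq2 called 12 and 8 members lower, and its share over all genes is not given here. The members' medians by edgeR were -0.24 in CDK1 KO and -0.25 in CDK7 KO. The highest value in both was that of RPL17, 0.24 and 0.19, and the lowest were -0.65 for RPS27 in CDK1 KO and -0.59 for RPS27A in CDK7 KO. These rested on the empty vector 96 h library: without it RPL17 was at 0.04 and -0.01, RPS27 at -0.17 in CDK1 KO and RPS27A at -0.25 in CDK7 KO. The members' medians without that library were -0.21 in CDK1 KO and -0.21 in CDK7 KO.

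Relative to MT mRNAs, all 73 members were called lower in CDK9 KO and in CDK7/9 KO, with medians of -1.05 and -1.12, against 67.6% and 65.9% of all genes and all-gene medians of -0.82 and -0.81. No member was called in CDK1 KO and CDK7 KO by edgeR on that scale, against 0.0% and 0.00596% of all genes called lower. The members' medians there were -0.62 and -0.56. An unadjusted p under 0.05 by edgeR was found for 60 and 52 members, and the share of all genes at that level is not given here. MT mRNAs were themselves called higher in CDK9 KO and CDK7/9 KO, 10 of 13 in each on the total-count scale, with medians of 0.92 and 0.85.

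Without the empty vector 96 h library, 27 members were lower in CDK9 KO and 42 in CDK7/9 KO on the total-count scale, with medians of -0.20 and -0.26, against 6.39% and 7.96% of all genes. In CDK1 KO and CDK7 KO 10 and 14 members were then lower, against 0.602% and 0.62% of all genes. Relative to MT mRNAs, 72 and 73 were lower in CDK9 KO and CDK7/9 KO without it, with medians of -0.70 and -0.75, against 54.1% and 52.2% of all genes. Without the empty vector 72 h library, 43 members were lower in CDK9 KO, 47 in CDK7/9 KO, 44 in CDK1 KO and 41 in CDK7 KO on the total-count scale, and 4, 2, 3 and 2 were higher. Calls rose over all genes too: 21.2%, 22.6%, 20.2% and 19.7% of them were lower and 19.9%, 20.5%, 20.7% and 17.1% higher. Leaving out any other condition's library left 2 members in CDK9 KO, and 6 or 7 in CDK7/9 KO for the CDK1 KO and CDK7 KO libraries. Without either of a knockout's own libraries no member was called in CDK9 KO or CDK7/9 KO on the total-count scale. On the mitochondrial scale none was called without the knockout's own 96 h library, and 73 and 67 were without its 72 h library. Such fits leave 1 library in an arm and take its spread from the other conditions. Apart from the fits without an empty vector library, their shares of all genes called are not given here.

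In CDK7/9 KO 6 of 19 other TOP mRNAs were lower on the total-count scale, with a median of -0.31, as were 11 of 76 mitochondrial RP genes (-0.17), 9 of 45 biogenesis genes (-0.23) and 1 of 20 polymerase I genes (-0.14). Of all genes 5.59% were lower there, with a median of -0.01. In CDK9 KO, where 3.7% of all genes were lower, the counts were 3 other TOP mRNAs, 6 mitochondrial RP genes and 5 biogenesis genes. In CDK1 KO and CDK7 KO edgeR called none of the other TOP mRNAs (12 and 11 with an unadjusted p under 0.05), with medians of -0.29 and -0.24. No difference between the lists was tested. The 10 libraries at 72 and 96 h did not differ between these times in any member by edgeR's adjusted test (2 with an unadjusted p under 0.05, and 0 called by DESeq2), over all 5 conditions together. Of all genes, 0.0238% were called higher and 0.0119% lower at 96 h. Within CDK9 KO alone the members' median log2 difference from 72 to 96 h was -0.16, with 3 of 73 above 0. In the other conditions the medians ranged from -0.03 (CDK7 KO) to 0.06 (empty vector). There 27 (CDK7 KO) to 50 (CDK7/9 KO) members lay above 0. With 1 library per time these differences were not tested.

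RP genes have many processed pseudogenes of near-identical sequence, which limits all these values. The 1288 rows named as RP pseudogenes held 20.8% to 23.6% as many counts as the 73 genes, and reads between a gene and its copies cannot be assigned with certainty. Genes that overlap another gene or an antisense gene are uncertain in the same way, since the strand setting of the counting is not given in the sources used here.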

How the data were processed

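The authors deposited raw read counts, as whole numbers, in 59428 rows named by gene symbol (698 by an Ensembl ID) for 33 libraries of 16985219 to 22859779 counts. Per the submitters' processing notes, the tools included FastQC and STAR 2.7.10a and the build was GRCh38. What counted the reads, on which annotation and strand, and whether molecular identifiers were used is not given in the sources used here. Without such identifiers, reads are not independent molecules.

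Counts were tested with edgeR 4.0.16 in R 4.3.3 (quasi-likelihood F test; filterByExpr at min.count 10 and min.total.count 15). Values were scaled to library totals and, separately, to the summed counts of the 13 MT mRNAs. The inhibitor model had the line as a block and each treatment and time (18911 genes, 11 residual degrees of freedom); a model with the line difference of each treatment had 8. The knockout model had time and genotype (16783 genes, 4 residual degrees of freedom) and left out the parental library, which has no matching time. Standard errors are those implied by the F statistic. Both models were tested on simulated data with known changes.

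The members and the lists (other TOP mRNAs, mitochondrial RP genes, ribosome biogenesis, RNA polymerase I, regulators, RP paralogs and fusions, MT mRNAs, line and immune markers) were chosen with earlier results of these data known. Start sites came from the RefSeq promoter table (GRCh38.p14) and gene structure from GENCODE release 29. Named are members fixed by role (RPL5, RPL11, RPLP0, RPLP1, RPLP2, RPS6, RPL3, RPS3, RPS14, RPL22, RPL41, RPS27A and RPSA), up to 3 members with the highest and 3 with the lowest change in a comparison with control or empty vector, those that go against the majority of calls, those near the count level, CDK1, CDK7 and CDK9, and up to 4 genes of each other list with the smallest p under the combination. Members named in other contrasts were chosen after their values were seen. Alternatives were TMM and DESeq2 size factors, scaling to the MT mRNAs, totals without the members, no filter, DESeq2 1.42.0, DMSO alone as control, no block for line or time, and leaving out each library. Some genes that the rule or the lists hold are not reported here.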

Additional observations from a re-analysis of the deposited data

How the results depend on the processing

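The counts here show how the calls moved with the processing. For the mitochondrial scale the shares of all genes called stand in the Results. For most other settings of this section they are not given. Counts at those settings are thus not results about the members as against other genes. The scale decided the direction under the inhibitors. Scaled to the 13 mitochondrial mRNAs, the counts of members called higher and lower were 0 and 4 for SY200, 0 and 53 for V50, and 0 and 73 for the combination against control, with medians of -0.30, -0.38 and -0.66. They were 0 and 58 (median -0.37) for the combination against SY200, 0 and 8 (-0.28) against V50, and 0 and 22 (-0.47) for 12 h against 3 h of the combination. By time they were 0 and 1 (-0.30) at 6 h and 0 and 51 (-0.55) at 12 h of V50, and 0 and 2 (-0.42), 0 and 72 (-0.70) and 0 and 73 (-0.88) at 3, 6 and 12 h of the combination. In the controls of the lines 0 members remained called higher in MDA-MD-468. In CDK9 KO and CDK7/9 KO 73 and 73 members were called lower, and RPLP2, above 0 on the total-count scale, was at -0.71 and -0.76. For V50 on this scale RPL5 was at -0.44, RPL11 -0.37, RPLP0 -0.38, RPLP1 -0.46, RPLP2 -0.32, RPS6 -0.46, RPL3 -0.49, RPS3 -0.42, RPS14 -0.41, RPL22 -0.28, RPL41 -0.50, RPS27A -0.33 and RPSA -0.31. For the combination RPL5 was at -0.76, RPL11 -0.65, RPLP0 -0.57, RPLP1 -0.59, RPLP2 -0.58, RPS6 -0.73, RPL3 -0.63, RPS3 -0.69, RPS14 -0.71, RPL22 -0.39, RPL41 -0.65, RPS27A -0.64 and RPSA -0.43.

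Without the block for the cell line, members called higher were 0 for V50, 8 for the combination, 1 for the combination against SY200, 0 against V50, 0 for 12 h against 3 h of the combination, 0 and 0 at 6 and 12 h of V50, and 0, 0 and 12 at 3, 6 and 12 h of the combination. With TMM scaling 16 were higher in the combination against V50, 55 at 12 h against 3 h of the combination, 5 and 28 at 3 and 12 h of V50 and 12 at 3 h of the combination, and 13 were lower in CDK9 KO. With DESeq2 size factors in edgeR these were 31, 59, 20, 35 and 34, and 2 members were higher in MDA-MD-468 controls. DESeq2 on library totals called 5 members higher at 3 h of V50, 4 at 3 h of the combination, and 12, 8 and 19 lower in the knockouts of CDK1, CDK7 and CDK9. With DMSO alone as the control 6 and 9 were higher at 3 h of V50 and of the combination. With no filter on low counts 11 were higher at 12 h of V50 and 1 at 3 h of the combination, and 26, 23, 26 and 37 were lower in the knockouts of CDK1, CDK7, CDK9 and both CDK7 and CDK9.

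Leaving out each library in turn gave 36 to 67 members higher for V50, 0 to 4 for the combination against V50, and 7 to 26 for 12 h against 3 h of the combination. By time it gave 0 to 3, 2 to 65 and 0 to 29 at 3, 6 and 12 h of V50, and 0 to 5 and 10 to 63 at 3 and 6 h of the combination. In MDA-MD-468 controls 2 to 5 were higher, with 2 when the DMSO library of MDA-MD-231 or the parental one of MDA-MD-468 was left out. V50 at 12 h gave 9 without the DMSO library of MDA-MD-231 and 9 without that of MDA-MD-468, and at 3 h V50 and the combination gave 3 and 5 without the parental library of MDA-MD-231. In the knockouts 0 to 3 were higher and 0 to 44 lower in CDK1 KO, 0 to 2 and 0 to 41 in CDK7 KO, 0 to 4 and 0 to 43 in CDK9 KO, and 0 to 2 and 0 to 47 in CDK7/9 KO, and 0 to 1 were lower at 96 h than at 72 h, with 1 without either empty vector library. Relative to mitochondrial mRNAs, an alternative chosen after seeing the data, the ranges were 0 to 70 lower in CDK1 KO, 0 to 70 in CDK7 KO, 0 to 73 in CDK9 KO and 0 to 73 in CDK7/9 KO. The cause of these changes was not tested. The cell line and the time were the only blocks that could be fitted, since the labels carry no replicate numbers shared between groups.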
